A study of Mus musculus with 3 samples.

Results

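The head of Mediator was described here through the RNA of its 10 subunit genes, Med6, Med8, Med11, Med17, Med18, Med19, Med20, Med22, Med28 and Med30, in mouse melanoma cells in which another Mediator gene, Med23, had been knocked down. The 10 genes were chosen by name as the textbook head module, and all 10 had a row among the 12852 genes of the series. The cells were B16F10, a pigmented mouse melanoma line. The series held 2 libraries of Med23 knockdown cells, titled siMed23A and siMed23B, and 1 library of control cells, titled siCtrl and given as wild type, all from total RNA of cells grown in DMEM with serum. The labels say neither how long the knockdown lasted nor whether the knockdown libraries were separate cultures or different siRNAs, so the spread between them may be technical. The control had no replicate.

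Mediator is the large complex that carries signals from transcription factors bound at enhancers to RNA polymerase II at the promoter. It is built from a head, a middle and a tail, held together by the scaffold subunit Med14, and a kinase module that binds reversibly. The head is the part that touches the polymerase and the general factors most closely. Med23 belongs to the tail, the side that receives transcription factors, and the ETS factor Elk1 is the best known of those that bind it.

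Values were RPKM, read density per length and library size, so levels of different genes can be set side by side. The authors had given the 3 libraries one common distribution, so each library summed to 255492 RPKM, and depth was unknown. Higher and lower therefore mean relative to the other genes of the same library. A change in total RNA cannot be seen, and the scaling favours equal shares of rises and falls over all genes. Med23 was at 1.65 and 1.61 RPKM in the knockdown libraries, against 5.23 RPKM in the control, a 3.20-fold lower level (log2 ratio -1.24, SE 0.11, limma adjusted p = 0.00121). The log2 ratios are on the log2(RPKM + 1) scale, knockdown minus control, and understate the change of low genes. All 7 melanocyte markers looked at were present in every library and were lower after knockdown, with a median log2 ratio of -1.39. Of 11 markers of other cells 3 had a row, and their summed level was 12.5 and 12.7 RPKM in the knockdown libraries, against 18.96 RPKM in the control. Most of that sum was Cd68, a lysosomal protein, which fell, while Pdgfrb (2.22 and 2.29 RPKM, against 1.90 RPKM) and Col1a1 (0.200 and 0.405 RPKM, against 0.189 RPKM) were above the control in both knockdown libraries. The defining markers of leukocytes (Ptprc), endothelium (Pecam1) and epithelium (Epcam) had no row. The 6 interferon-induced genes looked at were chosen with earlier results of these data known. They summed to 109 and 106 RPKM in the knockdown libraries and 3.84 RPKM in the control. The part of these shifts in the results on the head genes was not tested. In bulk RNA, a change in the mix of cell states and a change in RNA per cell cannot be told apart.

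In the RPKM as deposited, most head genes stood a little higher after Med23 knockdown, and Med22 stood far higher. Both knockdown libraries were above the control for 8 of the 10 genes and below it for Med17 and Med18, where 44.1% of all listed genes were above in both and 44.1% below in both. Med18 averaged under 1 RPKM over the libraries and was not tested. Of the 9 genes tested, Med22, Med8 and Med20 rose by limma and 6 did not pass, where 26.3% of the 9722 tested genes rose and 24% fell. The median log2 ratio of these 9 was 0.30, beside 0.01 over all tested genes. After a correction for transcript length and GC content, given below, the median of the 9 was 0.17. Med6, Med11 and Med30 then had negative log2 ratios (-0.021, -0.0023 and -0.12). At least 2-fold higher RPKM in both libraries was found for 1 of the 10, Med22, and for 6.51% of all listed genes. The limma fit has 1 residual degree of freedom and takes the lone control to vary like a knockdown library. With the control SD taken as 3 times larger, 0 head genes passed, Med22 coming closest with adjusted p = 0.0670, and 1.21% of all genes then rose.

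**Figure D1:**
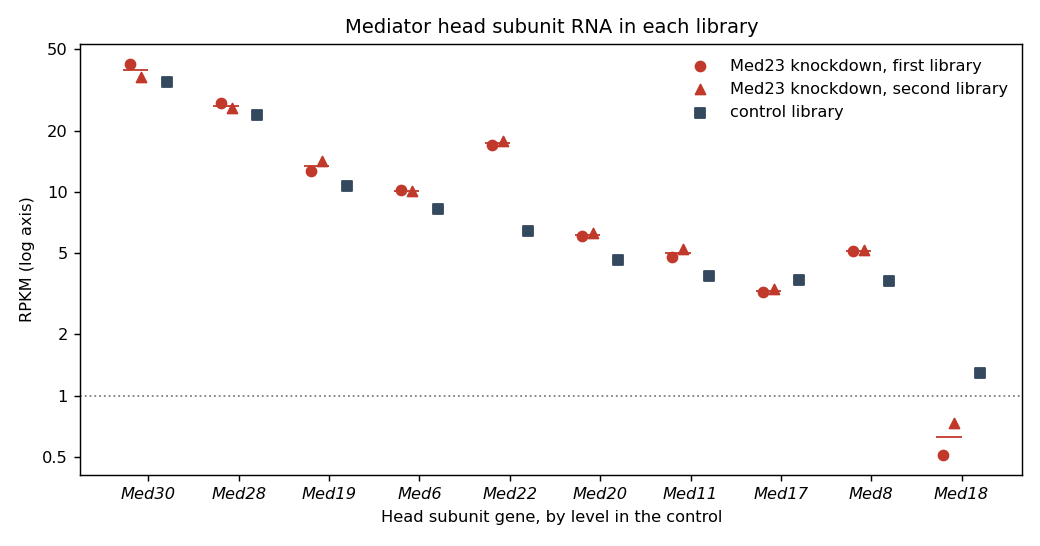
RPKM (log axis) of each head gene in the 2 knockdown libraries (red circle and triangle, with a line at their mean) and in the control library (dark square), ordered by level in the control. Med22 at 17.0 and 17.8 RPKM lies well above its control value of 6.44 RPKM, and Med17 and Med18 are the genes whose knockdown values lie below the control. The dotted line marks the minimum mean of 1 RPKM for testing.

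The head genes differed widely in level. In the control Med30 was the highest at 34.7 RPKM and Med18 the lowest at 1.29 RPKM, a ratio of 26.9, and that ratio was 83.3 and 49.4 in the knockdown libraries. The order by mean level after knockdown was Med30, Med28, Med22, Med19, Med6, Med20, Med8, Med11, Med17 and Med18. In this order the knockdown values of Med8 and Med11 overlapped, with a difference of 0.134 RPKM against an SD of 0.351 RPKM, and all other neighbours were apart. In the control the order was Med30, Med28, Med19, Med6, Med22, Med20, Med11, Med17, Med8 and Med18, with no spread to judge it by. Med22 thus held rank 3 after knockdown and rank 5 in the control, and Med8 ranks 7 and 9. Summed over the 10 genes the level was 129 and 125 RPKM in the knockdown libraries, against 101 RPKM in the control. Without Med22 the sums were 112 and 108 RPKM, against 94.6 RPKM.

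The core of the head is formed by Med17, Med11 and Med22. In yeast Med17 is the central scaffold of the module, and the small helical proteins Med11 and Med22 pair with each other and join it. Med22 (ENSMUSG00000015776) had 17.0 and 17.8 RPKM in the knockdown libraries, against 6.44 RPKM in the control. The knockdown mean of 17.4 ± 0.560 RPKM (SD, n = 2) was 2.71-fold the control. Its log2 ratio was 1.31 (95% interval 1.07 to 1.54, SE 0.09, limma adjusted p = 0.000639). Of all tested genes 1.37% had a higher log2 ratio. Med11 (ENSMUSG00000018923), its partner, had 4.77 and 5.27 RPKM after knockdown and 3.86 RPKM in the control. Both knockdown values were above the control, but the log2 ratio of 0.31 did not pass (SE 0.12, limma adjusted p = 0.0732). Med17 (ENSMUSG00000031935) had 3.22 and 3.33 RPKM after knockdown and 3.71 RPKM in the control. Both values were slightly below the control, with a log2 ratio of -0.14 that did not pass (95% interval -0.42 to 0.14, limma adjusted p = 0.326). The ratio of Med22 to Med11 RPKM was therefore 3.57 and 3.38 in the knockdown libraries, against 1.67 in the control, and that of Med22 to Med17 was 5.29 and 5.36, against 1.74.

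Med22 lies in the surfeit cluster, a tight group of housekeeping genes that share no sequence, on chromosome 2 in the mouse. It begins back to back with Rpl7a, a protein of the large ribosomal subunit, on the other strand. The 164 bases between the RefSeq starts of both genes are shown because they lie before the head gene with the largest rise. They are read on the Med22 strand (minus) at chr2:26910643-26910806 of GRCm38.p6, and capitals mark the match to GGGCGG, the letters bound by Sp1.
Med22: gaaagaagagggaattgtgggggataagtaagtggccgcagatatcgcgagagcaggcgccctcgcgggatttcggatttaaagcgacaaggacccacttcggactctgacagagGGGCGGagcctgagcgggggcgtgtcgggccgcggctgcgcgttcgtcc
Rpl7a had 266 and 263 RPKM in the knockdown libraries, against 188 RPKM in the control, and rose (log2 ratio 0.49, limma adjusted p = 0.00128). Surf6, the next gene downstream of Med22, which encodes a nucleolar protein, had 5.27 and 5.62 RPKM, against 4.38 RPKM, and did not pass (limma adjusted p = 0.101). On the other side of Med22, beyond Rpl7a, Surf1, an assembly factor of cytochrome c oxidase, had 14.5 and 15.2 RPKM after knockdown and 7.12 RPKM in the control (log2 ratio 0.97, limma adjusted p = 0.00154). Surf2 and Surf4 were added after the values of the cluster were seen. Surf2 had 7.28 and 6.84 RPKM, against 3.76 RPKM, and rose (log2 ratio 0.76, limma adjusted p = 0.00406), whereas Surf4, a cargo receptor of the secretory pathway, had 80.3 and 85.01 RPKM, against 87.5 RPKM (log2 ratio -0.08). Of the 5 genes beside Med22, 3 rose, where 26.3% of all tested genes did, and as Surf2 and Surf4 were picked with values known this is a description only. With the control SD 3 times larger Med22 did not pass.

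**Figure D2:**
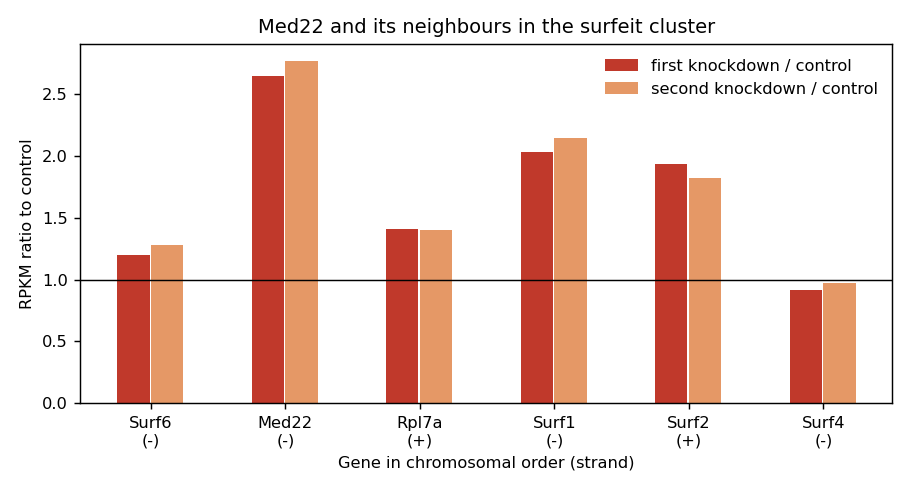
Ratio of RPKM in the first (red) and second (orange) knockdown library to the control, for Med22 and its neighbours in chromosomal order, with the strand in brackets and a line at a ratio of 1. Med22 at 2.64 and 2.77 is the tallest pair, and Surf4 lies just under 1.

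The movable jaw of the head is formed by Med18 and Med20, which pair with each other and in yeast are tethered to the core by Med8. The jaw genes did not move one way. Med8 (ENSMUSG00000006392) had 5.11 and 5.20 RPKM in the knockdown libraries, against 3.65 RPKM in the control, and rose (log2 ratio 0.41, SE 0.11, limma adjusted p = 0.0265). Med20 (ENSMUSG00000023984) had 6.05 and 6.29 RPKM, against 4.61 RPKM, and rose (log2 ratio 0.35, SE 0.11, limma adjusted p = 0.0390). In both genes the knockdown libraries lay close together and above the control. Med18 (ENSMUSG00000066042) had 0.512 and 0.739 RPKM after knockdown and 1.29 RPKM in the control, a 2.06-fold lower mean. Its knockdown libraries were both below the control but far apart for their size, with a mean of 0.626 ± 0.161 RPKM (SD, n = 2). When all listed genes were tested with no minimum, Med18 was lower (log2 ratio -0.50, SE 0.12, limma adjusted p = 0.0313), as were 18.9% of all genes, and Med20 then missed the threshold (adjusted p = 0.0647). The ratio of Med20 to Med18 RPKM was 11.8 and 8.50 in the knockdown libraries, against 3.58 in the control, while that of Med20 to Med8 was 1.18 and 1.21, against 1.27. The stable ID that the table pairs with Med20 belongs in GENCODE M21 to Gm20517, a model that runs over Med20 and on past it, so reads of both could be counted for Med20.

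The subunits at the joint between head and middle were both higher, without passing the test. Med6, which in yeast contacts the middle module, had 10.2 and 10.1 RPKM in the knockdown libraries, against 8.28 RPKM in the control (log2 ratio 0.26, SE 0.10, limma adjusted p = 0.0666). Med19, which sits at the hinge and is placed in the middle module by some structures, had 12.7 and 14.2 RPKM, against 10.7 RPKM (log2 ratio 0.30, SE 0.11, limma adjusted p = 0.0663). For each of these genes both knockdown values were above the control, as for 44.1% of all listed genes. Med19 overlaps in the annotation with Tmx2 at its start and with Zdhhc5 at its end, both on the other strand. Tmx2, a thioredoxin-related membrane protein, had 37.0 and 34.5 RPKM after knockdown and 22.4 RPKM in the control, and rose (limma adjusted p = 0.00308). Zdhhc5, a palmitoyl transferase, had 4.46 and 5.23 RPKM, against 7.24 RPKM, and fell (limma adjusted p = 0.0234). Whether reads were counted by strand is not given in the sources used here, so reads in the overlaps cannot be assigned.

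Med28 and Med30 have no counterpart in budding yeast and were the most abundant head RNAs. Med28, also studied as magicin for its binding to merlin, had 27.2 and 25.9 RPKM in the knockdown libraries, against 23.8 RPKM in the control, and did not pass (log2 ratio 0.15, 95% interval -0.05 to 0.36, limma adjusted p = 0.173). Med30 had 42.6 and 36.5 RPKM, against 34.7 RPKM (log2 ratio 0.18, 95% interval -0.09 to 0.45, limma adjusted p = 0.216). The second knockdown library of Med30 lay close to the control. The spread of Med30, 4.32 RPKM (SD, n = 2) on a mean of 39.6 RPKM, was the widest of the 10 genes in RPKM. For its level, Med18 spread more, with 0.626 ± 0.161 RPKM (SD, n = 2). For these genes the intervals include 0 and also modest rises.

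**Figure D3:**
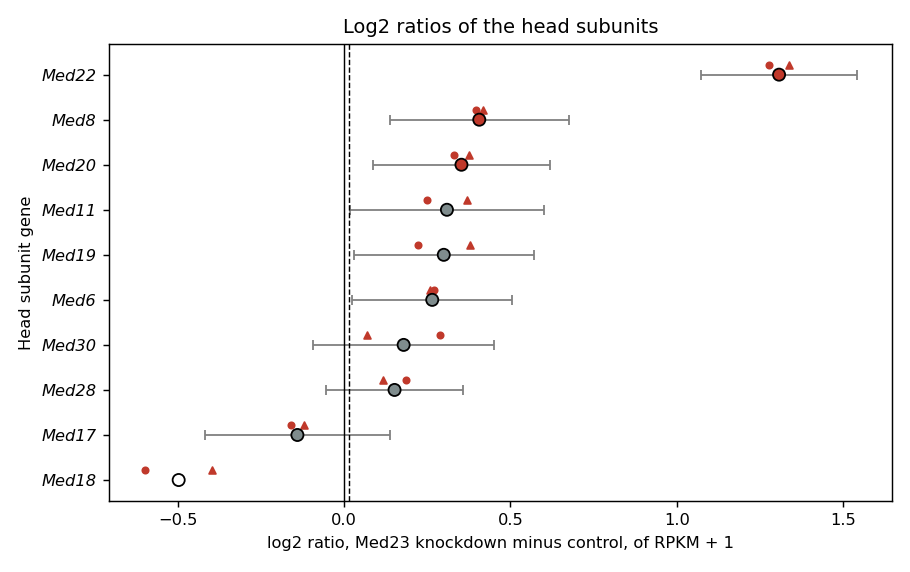
Log2 ratio of RPKM + 1, knockdown minus control, for each head gene: large points are the mean of the 2 libraries (red, rose; grey, not past the test; white, not tested), bars the 95% limma interval, small circles and triangles the first and the second knockdown library. The dashed line is the median of all tested genes at 0.01, and Med22 at 1.31 lies apart from the other head genes, which lie between -0.50 and 0.41.

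Transcript length moved with these ratios across the table. Med11, Med30 and Med6 have the shortest transcripts of the 10 genes, with a longest GENCODE M21 transcript of 902, 1007 and 1059 bases. The 248 tested genes of 900 to 1100 bases had a median log2 ratio of 0.33 and 53.6% of them rose, against a median of -0.15 and 14.5% in the 4563 genes of at least 3500 bases. After a loess correction for length and GC content, the log2 ratios of Med6, Med11 and Med30 changed sign, to -0.021, -0.0023 and -0.12, and the median of the 9 tested genes was 0.17. Med22, with a transcript of 3506 bases, had a log2 ratio of 1.30 after the correction. Med20, corrected with the length of the M21 gene of that name (5680 bases) and not of the model that carries its ID, had 0.55, and Med28 0.30, which then passed (adjusted p = 0.00194 and 0.0143), and Med8 had 0.24 and did not (adjusted p = 0.109). With Med22, 3 of the 9 then rose, where 27.6% of all genes in that fit did.

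**Figure D4:**
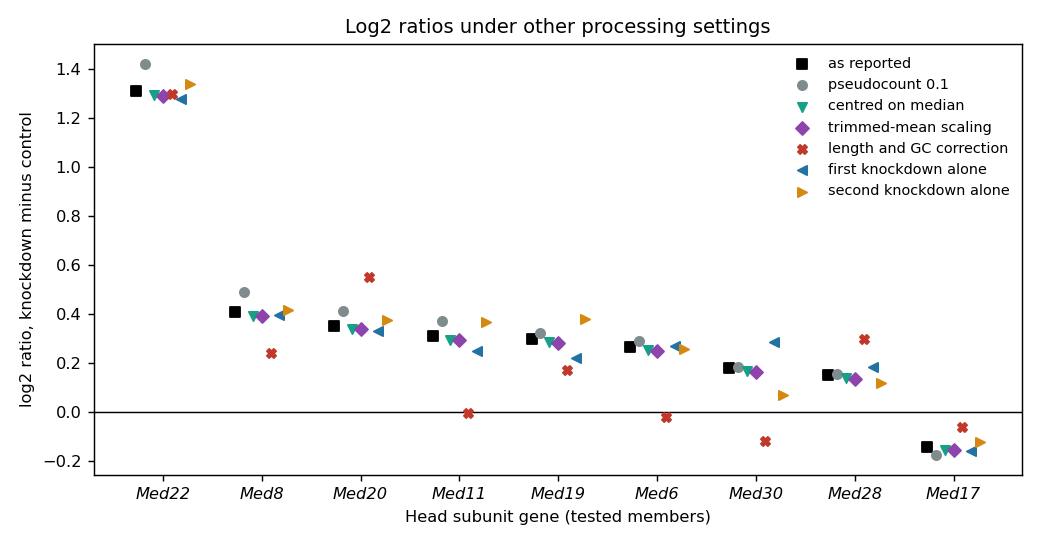
Log2 ratio of the 9 tested head genes under 7 processing settings, each a marker. The settings sit together for Med22, between 1.28 and 1.42, while the length and GC correction (red crosses) takes Med6, Med11 and Med30 to or below 0.

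The other Mediator genes were described by module with counts and medians, and the modules were not tested against each other. Over all tested genes 26.3% rose and 24% fell. Of the 6 kinase module genes tested, 5 fell and Med12 rose, with a median log2 ratio of -0.61, beside 0 falls and 3 rises among the 9 head genes and a median of 0.30. Cdk19, a kinase of the module, had 4.12 and 5.07 RPKM in the knockdown libraries, against 9.79 RPKM in the control (log2 ratio -0.95, limma adjusted p = 0.00436). Cdk8, its close relative, had 2.90 and 2.94 RPKM, against 5.003 RPKM, and Med13, which links the kinase to the core, 8.51 and 6.62 RPKM, against 13.3 RPKM. In the middle module, which connects head and tail, 2 of 8 rose (Med1 and Med10), 1 fell (Med26) and 5 did not pass, with a median of 0.11. In the tail without Med23, 1 of 6 rose (Med25, 29.3 and 31.4 RPKM against 18.9 RPKM) and 1 fell (Med24, 3.52 and 3.56 RPKM against 5.10 RPKM). Med14, the scaffold, had 1.28 and 1.22 RPKM after knockdown and 1.83 RPKM in the control, and did not pass (log2 ratio -0.33, limma adjusted p = 0.0588). Summed over the 22 other subunits without Med23 the level was 158 and 158 RPKM, against 154 RPKM in the control.

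The partners of the head were also looked at. Of the 12 subunits of RNA polymerase II, 7 rose, 1 fell and 4 did not pass, with a median log2 ratio of 0.29, beside 26.3% higher and 24% lower over all tested genes. With the control SD 3 times larger, 0 genes of the other Mediator, polymerase and general factor lists together were higher and 1 was lower. Of all 9722 tested genes, 118 (1.21%) were then higher and 77 lower. The largest rises were in the small subunits Polr2l, at 10.1 and 10.8 RPKM in the knockdown libraries against 3.71 RPKM in the control, Polr2i, at 6.44 and 5.39 RPKM against 2.43 RPKM, and Polr2h, at 7.95 and 7.29 RPKM against 4.02 RPKM. Polr2a, the catalytic subunit, had 29.6 and 32.7 RPKM, against 28.7 RPKM, and did not pass. Of 25 tested genes of the general transcription factors, 6 rose, 7 fell and 12 did not pass, with a median of -0.04. Gtf2e2, a subunit of TFIIE, had 39.5 RPKM in each knockdown library, against 92.6 RPKM in the control (log2 ratio -1.21, limma adjusted p = 0.000313). Gtf2b, which bridges the polymerase and TBP, had 4.90 and 3.89 RPKM, against 9.66 RPKM, and Taf2, a subunit of TFIID, 2.21 and 2.19 RPKM, against 4.41 RPKM. The length and GC correction gave 16 higher and 15 lower genes in the other Mediator, polymerase and general factor lists together. Without it 17 were higher and 15 lower. Without the correction these lists held 21, 12 and 25 tested genes, in that order. Over all tested genes 26.3% rose and 24% fell without the correction, and 27.6% rose with it. The part of transcript length in the polymerase or kinase counts alone was not tested. All values were compared with the same control library.

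**Figure D5:**
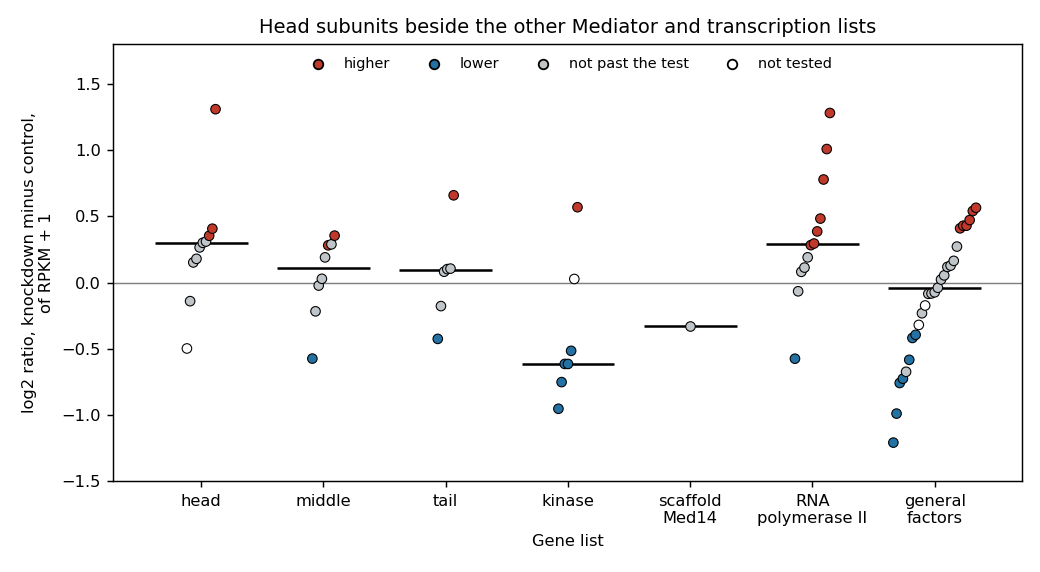
Log2 ratio of RPKM + 1, knockdown minus control, of each gene in the head, in the other Mediator modules (Med23 left out), in RNA polymerase II and in the general transcription factors. Points are the mean of the 2 knockdown libraries and bars the median of the tested genes, which is 0.30 in the head and -0.61 in the kinase module.

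The genes whose pattern over the 3 libraries was nearest to that of Med22, by Euclidean distance over both log2 ratios against the control, were Isg20, Pea15a and Erf, at distances of 0.0143, 0.0176 and 0.0211. Isg20, an interferon-induced exonuclease, had 30.9 and 31.9 RPKM in the knockdown libraries, against 12.2 RPKM in the control. Pea15a, a binding protein of ERK kinases, had 39.7 and 41.4 RPKM, against 15.9 RPKM, and Erf, an ETS repressor, 12.3 and 13.1 RPKM, against 4.55 RPKM. No head gene fell past the test, so none was matched for a fall.

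RefSeq start regions were used for 8 of the 10 head genes, and those of Med8 and Med30 were not used here. The 250 bases before each start were searched on both strands for the letters of common promoter motifs, and a match describes the letters alone. CCGGAAG, the core bound by ETS factors such as Elk1, was found before Med17 and Med19, and before 6.91% of all 32851 start regions. AAGATGG, the core of the YY1 motif, was found before Med19 and Med22 (4.49% of all regions). GGGCGG was found before Med6, Med18, Med20 and Med22 (32.7%), CACGTG, an E-box of the kind Mitf binds, before Med17 (6.02%), and TATAAA before Med28 (12.4%). TGACGTCA, the CRE, was found before none of the 8 (1.55% of all regions). In Med19 the matches to CCGGAAG and AAGATGG overlap. The 150 bases before the start are shown for Med17 and Med18, whose values were below the control, and for Med20 and Med19, whose values were above it, with matches in capitals. They lie at chr9:15279907-15280056 (minus strand), chr4:132463922-132464071 (minus), chr17:47611435-47611584 (plus) and chr2:84678252-84678401 (plus) of GRCm38.p6, in that order.
Med17: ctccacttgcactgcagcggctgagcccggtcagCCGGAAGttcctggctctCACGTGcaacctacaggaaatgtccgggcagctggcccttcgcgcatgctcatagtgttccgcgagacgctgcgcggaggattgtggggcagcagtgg
Med18: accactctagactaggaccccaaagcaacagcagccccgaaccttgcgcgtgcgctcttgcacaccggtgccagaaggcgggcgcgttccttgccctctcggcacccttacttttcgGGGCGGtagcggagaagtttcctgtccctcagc
Med20: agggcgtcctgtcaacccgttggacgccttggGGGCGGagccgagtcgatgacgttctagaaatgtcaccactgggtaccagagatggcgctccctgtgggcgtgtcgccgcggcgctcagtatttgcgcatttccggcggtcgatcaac
Med19: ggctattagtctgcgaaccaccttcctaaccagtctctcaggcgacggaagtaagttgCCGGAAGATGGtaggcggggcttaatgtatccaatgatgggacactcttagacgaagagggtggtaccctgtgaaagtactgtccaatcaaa
The ETS letters were absent from the Med22 window, and Med8, which rose, was not searched. Med17 and Med19, with these letters before their starts, did not pass the test, Med19 with limma adjusted p = 0.0663. Whether any of these letters bear on the levels was not tested.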

How the data were processed

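RNA sequencing libraries from B16F10 cells were made by standard Illumina methods from total RNA, per the labels' protocols. The authors deposited RPKM values. Of tools and builds, the notes of the submitters on processing list TopHat, Cufflinks, CASAVA 1.4 and mm9 without their order or role. Annotation, strand handling and filters are not given in the sources used here. Sorted by value, the columns matched within a relative difference of 1e-09 at 95.3% of ranks, so the RPKM had been quantile normalized. No depth or counting interval can be had from them.

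The header joins the names of both knockdown columns, so each was mapped to the knockdown group alone, as first and second in table order. The 9722 genes averaging 1 RPKM or more were fitted as log2(RPKM + 1) in limma 3.58.1 (R 4.3.3; eBayes with an intensity trend, prior of 4.37 degrees of freedom) with Benjamini-Hochberg adjustment over all tested genes and a threshold of 0.05. The step was tested on simulated data with the same noise in all libraries, so the simulation cannot show how the lone control varied. The members and lists were chosen with earlier results of these data known. Named were Med23, the 10 head genes, up to 3 called genes of each other Mediator or transcription list with the largest smaller change, annotated neighbours within 5000 bases, and the 3 genes nearest in pattern. Taf9, on 2 IDs, was left out. Transcript length and GC came from GENCODE M21 (98.9% of tested genes) and start sequences from RefSeq GRCm38.p6, another build than mm9. Alternatives were a pseudocount of 0.1, no minimum or 5 RPKM, other scalings, no trend, a larger control SD, a length and GC correction (loess, span 0.5), and each knockdown library left out. Tables were read with Python 3.11.15 and pandas 2.3.3.

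One annotated neighbour of a head gene is not reported here.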

Additional observations from a re-analysis of the deposited data

How the results depend on the processing

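Med22 was higher under all settings run, with log2 ratios between 1.28 and 1.42, and lost its call under the control SD 3 times larger alone (adjusted p = 0.0670). Med23, the targeted gene, also lost its call under that setting (limma adjusted p = 0.108). That setting left 118 higher and 77 lower genes in all, 0 higher head genes, and 0 higher and 1 lower among the other Mediator, polymerase and general factor genes, where 17 and 15 were called as reported; it widens the control's error by construction. A minimum of 5 RPKM tested fewer genes and called 1494 lower in all and 5 lower among those others. With no minimum 1 head gene, Med18, was called lower. The length and GC correction took the median of the head genes to 0.17 and reversed Med6 (-0.021), Med11 (-0.0023) and Med30 (-0.12); the cause was not tested. Leaving out a knockdown library, which leaves no test and so no counts of calls, gave medians of 0.27 and 0.37. Over the 9 tested head genes, 69 of the alternative values with a test kept direction and side of the threshold, 5 lost the call, 1 gained it and 3 reversed, and the 18 values with a library left out kept their direction. No paired analysis was possible because the control is a single library. Depth is unknown, and the precision of low genes such as Med18 cannot be given.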

Other observations

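Bysl, a ribosome assembly factor whose gene begins beside Med20 on the other strand, had 20.5 and 23.0 RPKM in the knockdown libraries, against 20.2 RPKM in the control (log2 ratio 0.10, limma adjusted p = 0.426), and did not pass, whereas Med20 rose. Fam184b, which ends close to the end of Med28 on the other strand, had 1.28 and 1.32 RPKM after knockdown and 0.711 RPKM in the control, and rose (log2 ratio 0.42, limma adjusted p = 0.0279), whereas Med28 did not pass. The difference between neighbours was not tested.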
